A study of Mus musculus with 10 samples.

Results

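Matrix metalloproteinases (MMPs), ADAMTS proteases with their ADAMTS-like relatives, and the tissue inhibitors of metalloproteinases (TIMPs) were examined in primary smooth muscle cells grown from mouse aorta. Members were the protein coding genes whose GENCODE mouse symbol is Mmp with a number, begins with Adamts, or is Timp1 to Timp4. This gave 50 genes of 54446 in the deposited count table, namely 22 Mmp, 19 Adamts, 5 Adamtsl and 4 Timp genes. The cells came from KitW/WV mice (WWv, 5 libraries) and from wild type mice (WT, 5 libraries), the labels name 5 mice of each genotype, and all cells were released with collagenase and cultured to passage 2. Kit encodes the receptor tyrosine kinase c-Kit. W removes the membrane-spanning part of the receptor and Wv alters its kinase domain, so the mutation was present in every cell of the animal and not only in smooth muscle. The titles do not tie a library to a mouse, so the p-values measure the spread between these libraries. The sources used here give neither sex nor age nor strain.

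MMPs are zinc-dependent proteases that are secreted or held at the cell membrane as inactive precursors and cut collagens, elastin, proteoglycans and many cell surface proteins. ADAMTS proteases are secreted zinc proteases whose thrombospondin repeats place them in the matrix, where they cut large proteoglycans or trim procollagens, whereas the ADAMTS-like proteins share these repeats and have no catalytic domain. TIMPs block the active site of MMPs, and TIMP-3 also that of several ADAMTS proteases. In the artery wall this system governs matrix turnover and the migration of smooth muscle cells.

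Libraries held 42040255 to 53863661 counts (46939200 ± 4096930 in WWv and 46771400 ± 3914970 in WT, SD, n = 5 each). Levels are given as CPM, counts scaled to library depth and to the TMM factor of edgeR, and ± after a level is the SD. The TMM factors did not overlap between the genotypes (0.957 to 0.984 in WWv and 1.01 to 1.06 in WT), so scaling by depth alone is given where it ends a call. Library WT 2 stood apart. It lay with the WWv libraries on the first principal component of all genes (52.5% of the variance) and apart from all others on the second (17.3%). Among the 38 members with enough counts for a test it was the lowest WT library in 22 and the highest in 8. In 25 it lay beyond the other WT libraries on the side of the WWv mean. Its cell cycle score, the mean log2 level of 26 cell cycle genes, was 5.65, against 5.42 to 5.62 in WWv and 4.94 to 5.10 in the other WT libraries. Kit itself fell by 1.04 on the log2 scale (2.00 ± 0.764 CPM in WWv and 4.12 ± 0.629 CPM in WT, n = 5 each, edgeR adjusted p = 0.0122), and its groups did not overlap. These alleles change the receptor protein and need not lower its transcript.

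Members of the family changed in both directions. Of the 38 tested members 8 rose in WWv cells, among them the membrane-type proteases Mmp14, Mmp17 and Mmp24, the protease gene Adamts8 and the inhibitors Timp1 and Timp2. Another 11 fell, among them the stromelysin gene Mmp3, the elastase gene Mmp12 and the proteoglycanase genes Adamts15, Adamts9 and Adamts5. The test was edgeR's quasi-likelihood test with Benjamini-Hochberg adjustment over 15181 genes, a gene being called at an adjusted p under 0.05. Of all tested genes 28.2% were called, 12.8% higher and 15.4% lower, against 50% of the tested members. Changes of at least 2-fold were called in 2 members upward and 5 downward (5.26% and 13.2% of those tested), against 0.902% and 4.03% of all tested genes. The median log2 fold change was −0.28 over the tested members and −0.01 over all tested genes. In 9 members (23.7%) the WWv and WT libraries did not overlap, against 15.9% of all tested genes. In 4 of them WWv lay above WT and in 5 below, against 8.03% and 7.84% of all tested genes. Members passed the filter on low counts in either genotype, so these shares describe the 38 and not all 50.

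The count of higher members fell to 5 without WWv 2, WT 1, WT 3 or WT 4 and to 4 without WWv 4, and the count of lower members rose to 18 without WT 2, when 46.2% of all tested genes were called. With library size alone as the scaling, 5 members were higher and 15 lower (6.48% and 23.7% of all tested genes), and the median of all genes moved to −0.09. In a fit that held the cell cycle score constant 4 members were higher and 2 lower, 6 in all (15.8%), against 9.26% of all tested genes, and of the 19 calls those of Mmp3, Mmp12, Mmp14 and Mmp17 were kept. Apart from WT 2 the score did not overlap between the genotypes, so this fit cannot separate the score from the genotype. In bulk RNA, fewer cells of a type and less RNA per cell cannot be told apart.

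**Figure D1:**
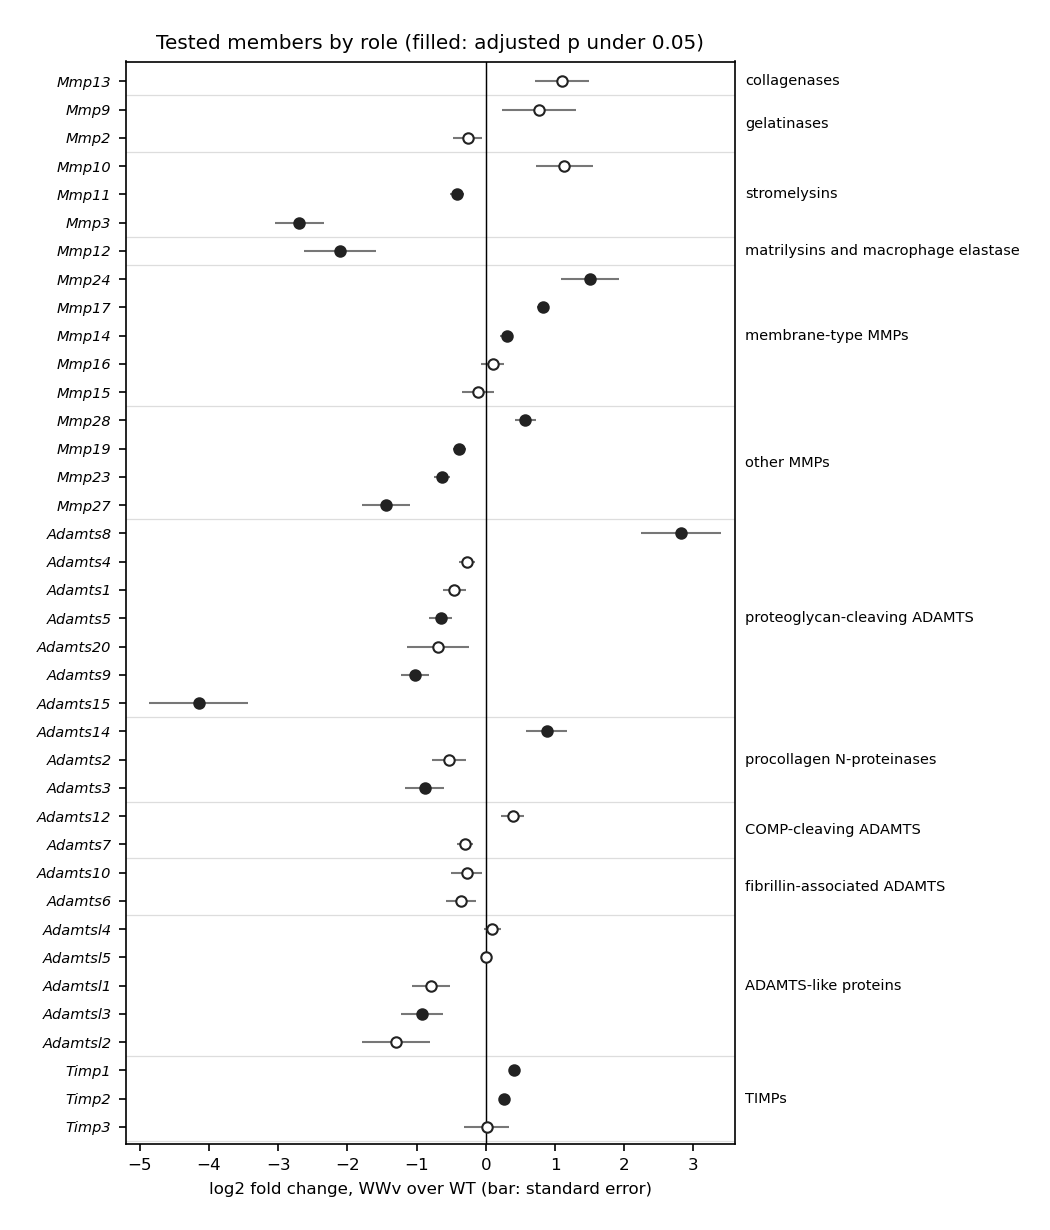
Log2 fold change of WWv over WT for the 38 tested members, grouped by role, with standard errors; filled points are the 19 past the threshold. The membrane-type MMPs that were called lie right of 0, and the points farthest from 0 are the neighbours Adamts8 (2.82) and Adamts15 (−4.15).

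Per kilobase of exon, 3 of the 4 inhibitor genes stood above every protease gene in mean level, while Timp4 was near 0. Timp1 averaged 1685 CPM per kb in WWv and 1274 CPM per kb in WT, and Timp2 averaged 632 CPM per kb in WWv and 528 CPM per kb in WT. Timp3 stood at 502 CPM per kb in WWv and 497 CPM per kb in WT. The most abundant proteases followed: Mmp14 (144 CPM per kb in WWv and 117 in WT), the gelatinase gene Mmp2 (67.0 in WWv and 80.3 in WT) and Adamts1 (39.4 in WWv and 53.9 in WT). Mmp14, Mmp2 and Adamts1 kept this order of means in both genotypes. Library values of Timp2 and Timp3 overlapped per kb in each genotype, so their order is not firm. The WWv and WT ranges of Timp3 and of Mmp2 overlapped.

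**Figure D2:**
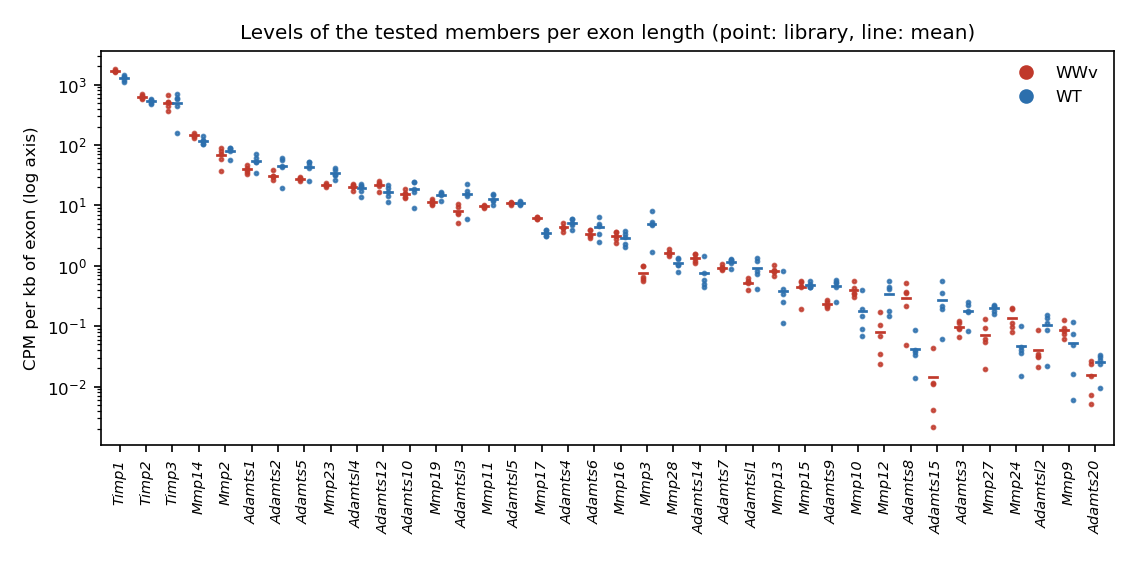
Level of each tested member per kilobase of exon (log axis) in the 10 libraries, WWv left of WT, with group means as lines, in order of the mean over all libraries. The 3 TIMP genes head the order, and Adamts15 and Adamts8, with the largest changes, lie towards the low end.

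Summed over each class, ADAMTS transcripts made 1228 ± 67.6 CPM in WWv and 1593 ± 429 CPM in WT (n = 5 each). WT 2, at 889 CPM, lay below every WWv library (1168 to 1331 CPM), and the other WT libraries, at 1543 to 1948 CPM, lay above them. MMP transcripts made 1284 ± 87.6 CPM in WWv and 1203 ± 129 CPM in WT, and TIMP transcripts 8045 ± 846 CPM in WWv and 7233 ± 1592 CPM in WT. The ADAMTS-like sum was 206 ± 21.2 CPM in WWv and 261 ± 60.0 CPM in WT. These sums are descriptions with no test, since they rest on chosen members. The sum over the 50 members was 10763 ± 939 CPM in WWv and 10291 ± 2158 CPM in WT, and it was lower in WWv by 429 CPM when WT 2 was left out. Mmp14 supplied 66.9% of the MMP sum in WWv and 57.8% in WT, and Mmp2 supplied 17.4% in WWv and 22.5% in WT. Within the ADAMTS sum Adamts5, Adamts2, Adamts12 and Adamts1 were the main parts, and Adamts12 took 19.4% in WWv and 11.7% in WT.

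**Figure D3:**
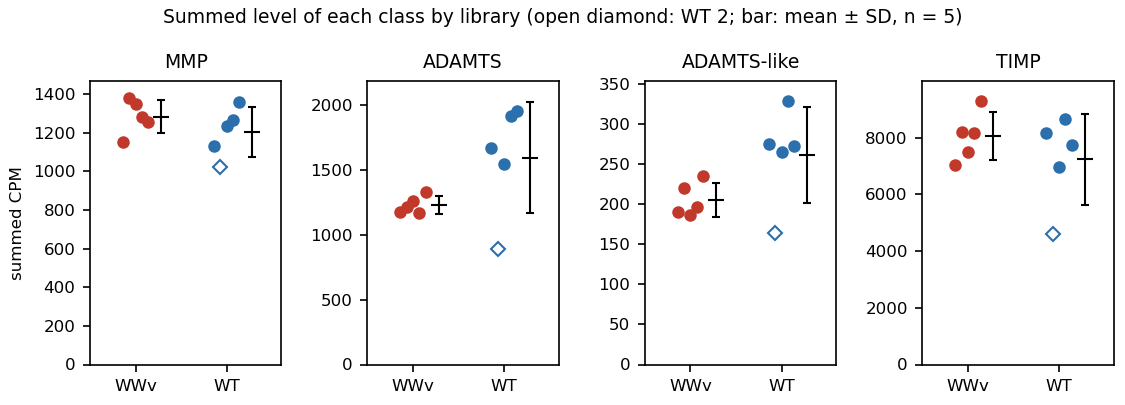
Summed CPM of the MMP, ADAMTS, ADAMTS-like and TIMP members in each library, with mean and SD (n = 5). The open diamond is WT 2, which is the lowest WT library in all 4 panels.

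Of the collagenases, stromelysins and related soluble MMPs in the count table, 9 lie in a 427 kb stretch of chromosome 9 (7272514 to 7699585, GRCm38, the assembly that mm10 names). No other protein coding gene of the count table lies between them, and genes absent from that table were not considered. In WWv cells 3 of the 5 tested genes there fell, against 15.4% of all tested genes, and 2 had higher means without passing. The order of these 9 genes along the chromosome was Mmp13 (collagenase-3), Mmp12 (macrophage elastase), Mmp1b, Mmp3 (stromelysin-1), Mmp10 (stromelysin-2), Mmp8 (neutrophil collagenase), Mmp27, Mmp20 (enamelysin) and Mmp7 (matrilysin). The RefSeq promoters of the 5 tested genes are given here because neighbours in this cluster had fold changes of opposite sign. Each runs from 250 bases before to 50 after the RefSeq start on the plus strand, 5′ to 3′, in GRCm38.p6. Capitals mark the AP-1 motif TGANTCA, the PEA3 (ETS factor) motif AGGAAG and the TATA box letters TATAAA, the first pair searched on both strands (PEA3 on the other strand reads CTTCCT) and the last on the gene's strand.
Mmp13 (chr9:7272264-7272563): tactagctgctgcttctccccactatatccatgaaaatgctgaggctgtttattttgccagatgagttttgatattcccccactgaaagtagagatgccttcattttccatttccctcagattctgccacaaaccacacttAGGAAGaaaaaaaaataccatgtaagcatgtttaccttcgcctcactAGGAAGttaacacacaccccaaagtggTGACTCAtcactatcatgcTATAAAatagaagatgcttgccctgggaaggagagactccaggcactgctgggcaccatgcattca
Mmp12 (chr9:7344147-7344446): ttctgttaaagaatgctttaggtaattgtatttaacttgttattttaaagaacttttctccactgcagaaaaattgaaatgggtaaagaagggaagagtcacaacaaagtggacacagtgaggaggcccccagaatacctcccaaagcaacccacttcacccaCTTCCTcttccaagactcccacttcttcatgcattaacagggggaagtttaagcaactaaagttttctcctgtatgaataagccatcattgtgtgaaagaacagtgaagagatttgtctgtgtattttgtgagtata
Mmp3 (chr9:7445572-7445871): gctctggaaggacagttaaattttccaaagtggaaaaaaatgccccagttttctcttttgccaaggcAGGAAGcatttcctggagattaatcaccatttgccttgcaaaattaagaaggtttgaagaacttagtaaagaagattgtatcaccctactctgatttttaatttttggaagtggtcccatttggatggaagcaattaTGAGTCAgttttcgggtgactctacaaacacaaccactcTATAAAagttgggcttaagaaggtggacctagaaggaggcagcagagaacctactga
Mmp10 (chr9:7502092-7502391): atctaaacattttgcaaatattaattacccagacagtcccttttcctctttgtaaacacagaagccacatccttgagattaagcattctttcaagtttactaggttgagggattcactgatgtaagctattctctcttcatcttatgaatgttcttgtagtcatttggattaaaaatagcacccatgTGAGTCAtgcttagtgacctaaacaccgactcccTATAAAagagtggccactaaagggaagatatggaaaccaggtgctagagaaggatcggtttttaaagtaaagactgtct
Mmp27 (chr9:7571146-7571445): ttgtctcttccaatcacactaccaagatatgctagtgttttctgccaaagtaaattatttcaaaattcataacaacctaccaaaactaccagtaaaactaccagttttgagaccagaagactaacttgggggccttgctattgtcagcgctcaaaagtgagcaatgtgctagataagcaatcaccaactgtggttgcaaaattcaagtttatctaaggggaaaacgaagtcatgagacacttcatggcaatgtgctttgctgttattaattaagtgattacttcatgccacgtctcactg
The promoters of Mmp13, Mmp3 and Mmp10 each held an AP-1 motif (35, 46 and 63 bases before the start) followed by TATAAA (16, 7 and 29 bases before the start). Neither motif was in these windows of Mmp12 and Mmp27. Of 32851 RefSeq promoters of the same length 7.81% held TGANTCA, 35.4% AGGAAG and 8.32% TATAAA. Mmp3 thus shared both motifs with Mmp13 and Mmp10, whose fold changes had the other sign; a match is only a match of letters.

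Mmp3, a stromelysin that cuts many matrix proteins and activates other MMPs, stood at 1.80, 1.02, 1.15, 1.79 and 1.11 CPM in WWv 1 to 5, against 8.51, 14.4, 9.65, 3.09 and 8.91 CPM in WT 1 to 5. All WWv libraries were below all WT libraries, and WT 2 was the highest of all. The fall was 6.47-fold (log2 fold change −2.69 ± 0.36 SE, edgeR adjusted p = 0.0008), and it passed in all 22 alternatives. Mmp12, the macrophage elastase, stood at 0.495, 0.255, 1.25, 0.172 and 0.745 CPM in WWv 1 to 5, against 2.96, 3.19, 4.06, 1.295 and 1.06 CPM in WT 1 to 5. The groups overlapped only through WWv 3 and WT 5 (−2.11 ± 0.52, adjusted p = 0.0137); 157 of its 7237 exon bases are shared with Mmp1b on the other strand, which was near 0. Mmp27, a little studied soluble MMP, stood at 0.292, 0.209, 0.120, 0.0431 and 0.134 CPM in WWv 1 to 5, against 0.480, 0.496, 0.390, 0.457 and 0.353 CPM in WT 1 to 5. It was low everywhere, with 2 to 24 counts per library, and the groups did not overlap (−1.44 ± 0.35, adjusted p = 0.0127).

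The other genes of the cluster did not pass. Mmp13, which cuts fibrillar collagen, stood at 1.80, 2.11, 2.31, 2.71 and 2.18 CPM in WWv 1 to 5, against 1.11, 2.18, 0.916, 0.667 and 0.306 CPM in WT 1 to 5. WT 2 lay within the WWv range and the other WT libraries below it (1.10 ± 0.38, adjusted p = 0.0532). Mmp10 averaged 0.681 ± 0.175 CPM in WWv and 0.308 ± 0.229 CPM in WT (1.13 ± 0.41, adjusted p = 0.0586, n = 5 each), with WT 2 within the WWv range there too. Without WT 2 both passed, Mmp13 at 1.56 (edgeR adjusted p = 0.00137) and Mmp10 at 1.65 (adjusted p = 0.0018), and DESeq2 called both with all libraries (adjusted p = 0.0174 and 0.0317). Mmp8, whose product cuts fibrillar collagen, had too few counts for the test (1 to 21 per library), with 0.0450, 0.0232, 0.0241, 0.0861 and 0.0955 CPM in WWv 1 to 5, against 0.417, 0.172, 0.409, 0.190 and 0.259 CPM in WT 1 to 5. Its groups did not overlap, and without the filter on low counts it was called (log2 fold change −2.30, edgeR adjusted p = 0.00546). Mmp1b and Mmp20 had at most 2 counts in any library, and Mmp7 had 0 in all 10, which allows up to 0.0571 to 0.0722 CPM by library (3 counts, counting error only).

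Summed levels of 10 macrophage markers were 21.1 to 26.2 CPM in WWv and 21.4 to 42.9 CPM in WT, with WT 2 the lowest of WT. The mean log2 level of the 6 tested ones was 1.64 to 1.86 in WWv, 1.79 in WT 2 and 1.88 to 2.35 in the other WT libraries. It thus overlapped between the genotypes only through WT 2. By edgeR 0 of the 6 were called (4 at an unadjusted p under 0.05, all lower, with 1 lower by DESeq2 and 0 by limma-voom). Of these markers 5 stayed below 1 CPM in every library. Among them Adgre1, which encodes the macrophage antigen F4/80, averaged 0.00962 CPM in WWv and 0.235 CPM in WT without overlap, at 0 to 23 counts per library. Itgam averaged 0.0310 CPM in WWv and 0.0853 CPM in WT. C1qa (0.0207 CPM in WWv and 0.206 CPM in WT, without overlap) and C1qb (0.0373 CPM in WWv and 0.2498 CPM in WT) also had lower means in WWv, and the pan-leukocyte gene Ptprc had a higher one (0.379 CPM in WWv and 0.283 CPM in WT). Their part in the levels of Mmp12, Mmp8 and Mmp9 was not tested.

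**Figure D4:**
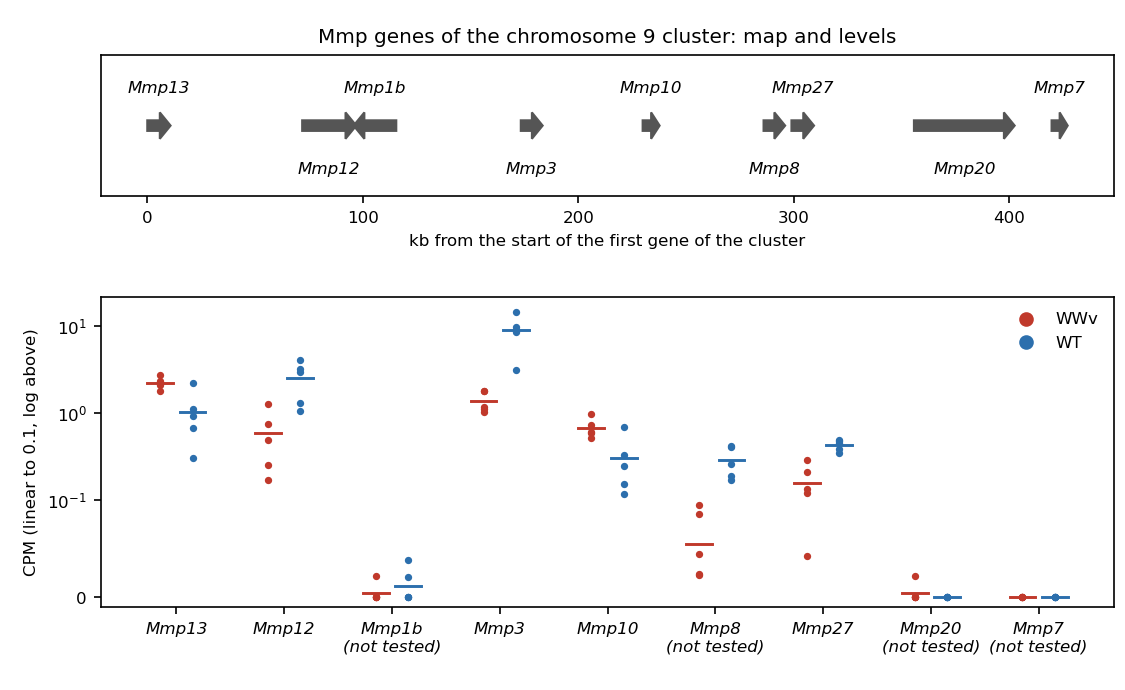
Map of the 9 Mmp genes of the chromosome 9 cluster, with arrows for gene direction and distance in kb, above their CPM in the 10 libraries (linear to 0.1, log above; points are libraries, lines are means, WWv left of WT). Mmp12, Mmp3, Mmp8 and Mmp27 have lower means in WWv, and Mmp13 and Mmp10 higher ones.

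Outside the cluster, the membrane-type MMPs, which act at the cell surface, rose in 3 of 5 tested members and fell in 0 (edgeR, 0 lower also at an unadjusted p under 0.05, in DESeq2 and in limma-voom). This group leaves out Mmp23, also a membrane MMP, which is counted with the other MMPs below and fell (−0.63 ± 0.11, edgeR adjusted p = 0.00271). The absence of falls therefore holds for this grouping and not for all MMPs of the membrane. Of all tested genes 12.8% were called higher and 15.4% lower. Mmp17 (MT4-MMP, anchored by a lipid tail; chromosome 5, 129584169 to 129611099) was the steadiest change of the family. It stood at 41.7, 40.8, 42.8, 40.1 and 38.8 CPM in WWv 1 to 5, against 20.6, 23.1, 25.7, 20.4 and 25.8 CPM in WT 1 to 5. Every WWv library exceeded every WT library, WT 2 among them (0.82 ± 0.07, adjusted p = 0.000182), and the call held in all 22 alternatives with a log2 fold change of 0.74 to 0.86.

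Mmp14 (MT1-MMP, the main pericellular collagenase and activator of pro-MMP-2; chromosome 14, 54431612 to 54445364) stood at 840.0, 871, 956, 835 and 788 CPM in WWv 1 to 5, against 609, 615, 701, 717 and 839 CPM in WT 1 to 5. Only WT 5 reached the WWv range (0.30 ± 0.09, adjusted p = 0.0315). Leaving out WWv 2, WWv 3, WWv 4, WT 1, WT 3 or WT 4 ended the call (0.26 to 0.31, edgeR adjusted p 0.0536 to 0.0764) and with library size alone (0.22, adjusted p = 0.0768). Mmp24 (MT5-MMP, best known from the nervous system) stood at 0.382, 0.929, 0.529, 0.904 and 0.458 CPM in WWv 1 to 5, against 0.167, 0.474, 0.214, 0.190 and 0.0705 CPM in WT 1 to 5. WT 2 lay within the WWv range and all other WT libraries below it (1.502 ± 0.42, adjusted p = 0.0233), and the call was lost without WT 1, WT 3, WT 4, WWv 2 or WWv 4 (1.33 to 1.49, edgeR adjusted p 0.0539 to 0.0638). Its exons share 637 of 4683 bases with BC029722 on the other strand, which stood at 39.6 CPM in WWv and 41.1 CPM in WT, so its reads are uncertain. Mmp15 (2.39 ± 0.798 CPM in WWv and 2.59 ± 0.257 CPM in WT) and Mmp16 (26.7 ± 4.40 CPM in WWv and 25.0 ± 6.12 CPM in WT, n = 5 each) did not pass, and Mmp25, at 1 to 16 counts per library, was not tested.

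Both gelatinase genes, whose products cut denatured collagen and basement membrane, fell short of the threshold (0 of 2 called by edgeR, 0 at an unadjusted p under 0.05, 0 by DESeq2 and 0 by limma-voom). Mmp2 stood at 126, 304, 196, 239 and 265 CPM in WWv 1 to 5, against 291, 193, 298, 305 and 267 CPM in WT 1 to 5. WWv 1 was the lowest library and the ranges overlapped (−0.26 ± 0.21, edgeR adjusted p = 0.367). Mmp9 stood at 0.292, 0.325, 0.217, 0.452 and 0.267 CPM in WWv 1 to 5, against 0.0209, 0.259, 0.175, 0.0571 and 0.423 CPM in WT 1 to 5, with overlapping ranges (0.76 ± 0.53, adjusted p = 0.303).

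Among the other MMPs 3 of 4 tested members fell, namely Mmp23, Mmp19 and the cluster gene Mmp27 given above, and 1 rose, Mmp28. Of all tested genes 15.4% were called lower and 12.8% higher. Mmp23, a membrane MMP with an unusual domain order (chromosome 4, 155650655 to 155653384), stood at 46.7, 50.8, 51.2, 50.8 and 54.7 CPM in WWv 1 to 5, against 73.2, 60.4, 74.7, 90.1 and 96.0 CPM in WT 1 to 5. WWv was below WT in every library, with WT 2 the lowest of WT (−0.63 ± 0.11, adjusted p = 0.00271). Mmp19, a secreted MMP of many tissues, fell by 0.39 ± 0.09 on the log2 scale (39.9 ± 3.68 CPM in WWv and 52.2 ± 6.62 CPM in WT, adjusted p = 0.0129, n = 5 each), although 789 of its 3533 exon bases are shared with Tmem198b on the other strand. The stromelysin-3 gene Mmp11, secreted in active form, fell by 0.42 ± 0.10 (26.8 ± 1.12 CPM in WWv and 35.9 ± 6.03 CPM in WT, adjusted p = 0.0121). Mmp28 (epilysin) rose by 0.57 ± 0.15 (6.37 ± 0.644 CPM in WWv and 4.28 ± 0.928 CPM in WT, adjusted p = 0.0163). The groups did not overlap for Mmp11 and Mmp28. Mmp21 had at most 1 count in a library.

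The ADAMTS proteases that cut proteoglycans, the aggrecanases and versicanases, fell in 3 of 7 members and rose in 1, against 15.4% lower and 12.8% higher of all tested genes. They held the largest change of the family in each direction. These were direct neighbours: Adamts15 and Adamts8 lie 20.1 kb apart on chromosome 9, on opposite strands and facing away from each other (30899155 to 30922452, minus strand, and 30942562 to 30963838, plus strand). Adamts15 stood at 0.0225, 0.116, 0.120, 0.0431 and 0.458 CPM in WWv 1 to 5, against 3.61, 0.647, 2.03, 5.77 and 2.21 CPM in WT 1 to 5. In counts these were 1, 5, 5, 2 and 24 reads in WWv 1 to 5, against 173, 30, 104, 303 and 94 in WT 1 to 5. All WWv libraries were below all WT libraries, WT 2 the nearest (17.8-fold lower, log2 fold change −4.15 ± 0.71, adjusted p = 0.00252). Without WWv 5 the log2 fold change was −5.22. Adamts8 stood at 0.225, 1.63, 0.986, 1.68 and 2.37 CPM in WWv 1 to 5, against 0.188, 0.0647, 0.156, 0.171 and 0.3997 CPM in WT 1 to 5. Of the WWv libraries 4 exceeded every WT library, and WWv 1 lay within the WT range (7.08-fold higher, 2.82 ± 0.58, adjusted p = 0.00579). WWv 5 had the most of both genes among the WWv libraries. Adamts8 shares 489 of 4613 exon bases with the antisense gene Gm29724, which averaged 0.234 CPM in WWv and 0.112 CPM in WT, so its reads are uncertain. Neither passed in the fit that held the cell cycle score constant (Adamts15 −2.53, edgeR adjusted p = 0.0898; Adamts8 3.14, adjusted p = 0.1).

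**Figure D5:**
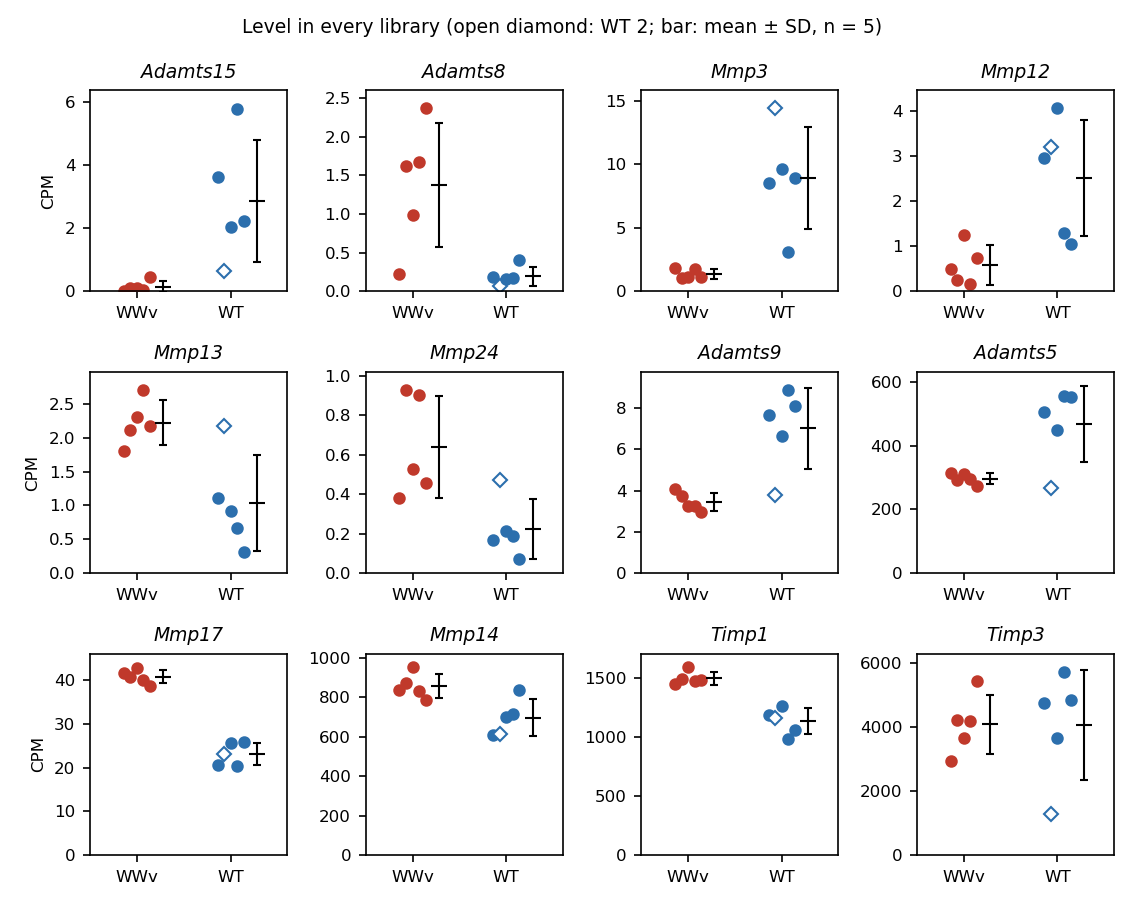
CPM of 12 members in every library (linear axes from 0), WWv left of WT, with mean and SD (n = 5); the open diamond is WT 2. WT 2 lies in or beyond the WWv range for Mmp13, Mmp24, Adamts9 and Adamts5, and outside it for Mmp3, Mmp12, Mmp17 and Timp1.

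A second pair of neighbours, Adamts1 and Adamts5, lies 53.1 kb apart on the minus strand of chromosome 16 (85793827 to 85803113 and 85856173 to 85901828). Adamts5, the main aggrecanase of mouse cartilage, stood at 313, 293, 311, 294 and 272 CPM in WWv 1 to 5, against 507, 268, 449, 556 and 554 CPM in WT 1 to 5. WT 2 was below all WWv libraries and the other WT libraries were above them (−0.65 ± 0.17, adjusted p = 0.0146). Adamts1, which cuts versican, stood at 246, 207, 178, 189 and 224 CPM in WWv 1 to 5, against 375, 179.9, 280.2, 321 and 274 CPM in WT 1 to 5, with WT 2 inside the WWv range. It fell short (−0.45 ± 0.17, adjusted p = 0.0626) and passed without WT 2 (−0.58, adjusted p = 0.00179). In the fit that held the cell cycle score constant both estimates were near 0 (Adamts5 −0.02, edgeR adjusted p = 0.891, and Adamts1 0.03, adjusted p = 0.939). That fit cannot separate the score from the genotype.

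Adamts9, a versicanase with a long tail of thrombospondin repeats, stood at 4.07, 3.72, 3.25, 3.27 and 2.96 CPM in WWv 1 to 5, against 7.68, 3.79, 6.63, 8.86 and 8.11 CPM in WT 1 to 5. Only WT 2 lay within the WWv range (−1.02 ± 0.20, adjusted p = 0.00483). Its exons share 1381 of 15048 bases with A730049H05Rik on the other strand, which averaged 0.253 CPM in WWv and 0.371 CPM in WT. Adamts4, an aggrecanase (20.7 ± 2.31 CPM in WWv and 25.0 ± 4.18 CPM in WT), did not pass (−0.27 ± 0.12, adjusted p = 0.106), and it did without WT 2 (−0.35, adjusted p = 0.0107). Adamts20, at 2 to 16 counts per library, did not pass (−0.69 ± 0.45, adjusted p = 0.265).

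The procollagen N-proteinases, which trim the amino end of fibrillar procollagens, were called in opposite directions, Adamts14 higher and Adamts3 lower, and limma-voom made the first call but not the second. Adamts14 stood at 5.87, 8.22, 6.16, 8.27 and 7.08 CPM in WWv 1 to 5, against 2.34, 7.61, 2.98, 2.57 and 3.88 CPM in WT 1 to 5. WT 2 lay inside the WWv range and the rest of WT below it (0.88 ± 0.30, adjusted p = 0.0461). Without WT 2 the change was 1.28 (edgeR adjusted p = 0.000174), and without any one of the other 9 libraries the call was lost (0.74 to 0.94, adjusted p 0.0554 to 0.108). With library size alone as the scaling Adamts14 was not called either. Adamts3 stood at 0.675, 0.511, 0.481, 0.366 and 0.611 CPM in WWv 1 to 5, against 0.981, 0.453, 0.916, 1.35 and 1.20 CPM in WT 1 to 5. WT 2 was again the only WT library in the WWv range (−0.89 ± 0.28, adjusted p = 0.038), and the call was lost without any one library other than WT 2 and WWv 1 (−0.95 to −0.74, edgeR adjusted p 0.0514 to 0.0948). Adamts2, by far the most abundant of the 3 per kb of exon (31.2 CPM per kb in WWv and 45.2 CPM per kb in WT), stood at 291 ± 42.1 CPM in WWv and 422 ± 153 CPM in WT (−0.54 ± 0.25, adjusted p = 0.128) and passed without WT 2 (−0.73, adjusted p = 0.00106).

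Neither of the proteases that cut cartilage oligomeric matrix protein was called (0 of 2 by edgeR, 0 by DESeq2 and 0 by limma-voom, but 2 at an unadjusted p under 0.05). Adamts12 stood at 185, 250.3, 278, 225 and 254 CPM in WWv 1 to 5, against 153, 125, 181, 213 and 239 CPM in WT 1 to 5, with overlap (0.39 ± 0.17, adjusted p = 0.106), and passed without WT 5 (0.50, adjusted p = 0.046). It also passed in the fit that held the cell cycle score constant (0.82, edgeR adjusted p = 0.035), which cannot separate the score from the genotype. Adamts7, linked to neointima formation in mouse arteries, averaged 5.87 ± 0.557 CPM in WWv and 7.24 ± 1.03 CPM in WT (−0.30 ± 0.11, adjusted p = 0.0682) and passed without WT 1 (−0.38, adjusted p = 0.0185). The fibrillin-associated proteases were also not called (0 of 2 by edgeR, at an unadjusted p under 0.05, by DESeq2 and by limma-voom). Adamts6 stood at 22.6, 24.0, 30.9, 25.0 and 30.5 CPM in WWv 1 to 5, against 25.8, 19.3, 36.0, 38.5 and 50.9 CPM in WT 1 to 5, with WT 2 the lowest library (−0.36 ± 0.22, adjusted p = 0.243). Adamts10 averaged 127 ± 17.2 CPM in WWv and 154 ± 52.3 CPM in WT (−0.28 ± 0.23, adjusted p = 0.373). Without WT 2 Adamts6 (−0.50, adjusted p = 0.0297) and Adamts10 (−0.45, adjusted p = 0.0126) passed. The other Adamts genes were not tested: Adamts17 and Adamts18 had 4 to 26 counts per library, and Adamts16, Adamts19 and the von Willebrand factor protease gene Adamts13 had at most 4.

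Of the 5 ADAMTS-like genes, whose products bind fibrillin microfibrils without cutting, 1 fell and 0 rose (edgeR, 20% of those tested, against 28.2% of all tested genes). At an unadjusted p under 0.05 and by DESeq2 3 were lower and 0 higher, and limma-voom called 0 in either direction. Adamtsl3 stood at 39.0, 73.9, 58.9, 55.0 and 82.7 CPM in WWv 1 to 5, against 121, 45.8, 110.02, 174 and 135 CPM in WT 1 to 5. WT 2 lay inside the WWv range and the other WT libraries above it (−0.92 ± 0.30, adjusted p = 0.0435), and the call was lost without any one library other than WT 2 and WWv 5 (−0.99 to −0.74, edgeR adjusted p 0.0634 to 0.105). Adamtsl1 (6.75 ± 1.14 CPM in WWv and 11.7 ± 4.87 CPM in WT, −0.79 ± 0.27, adjusted p = 0.0515) fell just short. So did Adamtsl2 (0.328 ± 0.205 CPM in WWv and 0.824 ± 0.419 CPM in WT, −1.30 ± 0.49, adjusted p = 0.07). Without WT 2 they passed at −0.97 (adjusted p = 0.00186) and −1.54 (adjusted p = 0.00497), and Adamtsl2 also passed without WWv 5 (−1.78, adjusted p = 0.025). Adamtsl4 (85.6 ± 8.47 CPM in WWv and 80.2 ± 14.8 CPM in WT) and Adamtsl5 (51.6 ± 2.39 CPM in WWv and 51.6 ± 3.39 CPM in WT, n = 5 each) had group means within 1 SD of each other.

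Of the inhibitors, Timp1 and Timp2 rose with no overlap between the groups. Timp1, an inducible TIMP (chromosome X, 20870166 to 20874735), stood at 1446, 1489, 1593, 1473 and 1482 CPM in WWv 1 to 5, against 1187, 1161, 1265, 986 and 1059 CPM in WT 1 to 5 (0.40 ± 0.07, adjusted p = 0.00298). Timp2, which with MT1-MMP also takes part in activating pro-MMP-2, stood at 2676, 2483, 2279, 2517 and 2359 CPM in WWv 1 to 5, against 2224, 2175, 2067, 1952 and 1864 CPM in WT 1 to 5 (0.26 ± 0.07, adjusted p = 0.0186). WT 2 lay among the other WT libraries for both. The call of Timp2 was lost without WWv 4 (0.25, edgeR adjusted p = 0.0557) and with library size alone (0.18, adjusted p = 0.104). Timp3, the matrix-bound TIMP, stood at 2928, 4221, 3638, 4193 and 5448 CPM in WWv 1 to 5, against 4754, 1273, 3639, 5725 and 4833 CPM in WT 1 to 5. WT 2 was the lowest library of all, and the groups did not differ beyond their spread (0.01 ± 0.32, adjusted p = 0.977; −0.21, adjusted p = 0.33, without WT 2). In the fit that held the cell cycle score constant its estimate was 1.24 (edgeR adjusted p = 0.0608). Its exons share 1733 of 8144 bases with Syn3 on the other strand (11.8 CPM in WWv and 11.6 CPM in WT). Timp4 had at most 4 counts per library.

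Genes that activate or restrain the family moved in both directions, 3 rising and 4 falling among 15 tested (46.7%, against 28.2% of all tested genes), while limma-voom called 3 higher and 2 lower. Those of the urokinase system, which turns plasminogen into the MMP activator plasmin, were higher. The urokinase receptor gene Plaur rose (156 ± 18.2 CPM in WWv and 78.2 ± 17.3 CPM in WT, 1.00 ± 0.14, adjusted p = 0.00105), and the urokinase gene Plau rose (80.4 ± 13.0 CPM in WWv and 47.8 ± 17.6 CPM in WT, 0.75 ± 0.20, adjusted p = 0.0202). Plat, which encodes tissue plasminogen activator, fell (12.9 ± 2.24 CPM in WWv and 25.5 ± 4.53 CPM in WT, −0.98 ± 0.14, adjusted p = 0.00116). A2m, the broad protease trap alpha-2-macroglobulin, fell too (0.630 ± 0.550 CPM in WWv and 9.35 ± 7.46 CPM in WT, −3.86 ± 0.92, adjusted p = 0.0114), a call that limma-voom did not make (adjusted p = 0.183). Without WWv 5 the change of A2m was −4.50. WT 2 lay inside the WWv range for A2m (0.216 CPM, against 0.0450 to 1.49 CPM in WWv) and for Plau (79.0 CPM, against 66.2 to 101 CPM in WWv). The other WT libraries lay above that range for A2m and below it for Plau. Plau was not called without WT 1 (0.71, edgeR adjusted p = 0.051) or WT 3 (0.72, adjusted p = 0.0508). Without WWv 1 the higher genes of this list numbered 6.

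Substrates of the family rose in 3 and fell in 4 of 22 tested genes (31.8% called, against 28.2% of all tested genes). The 4 were the small proteoglycan genes Lum (1.80 ± 0.881 CPM in WWv and 29.7 ± 19.6 CPM in WT, −4.02 ± 0.66, adjusted p = 0.00209) and Dcn (−1.76 ± 0.48, adjusted p = 0.0206), the fibrillin gene Fbn2 (−1.87 ± 0.38, adjusted p = 0.00569), and Vcan, which encodes versican, the substrate of Adamts1, Adamts5, Adamts9 and Adamts15. Vcan stood at 112 ± 17.9 CPM in WWv and 161 ± 42.5 CPM in WT (−0.53 ± 0.18, adjusted p = 0.0463), and its call was lost without any one library other than WT 4 and WT 5 (−0.58 to −0.40, edgeR adjusted p 0.0501 to 0.107). WT 2 lay inside the WWv range for Lum (2.63 CPM, against 1.10 to 3.23 CPM in WWv). For Dcn it lay below every WWv library (21.2 CPM, against 22.8 to 59.5 CPM in WWv). The other WT libraries lay above the WWv range for both. Of the 4 substrates that fell, limma-voom called only Fbn2, and Lum was at −1.21 (edgeR adjusted p = 0.153) in the fit that held the cell cycle score constant. Dcn was not called without WWv 2 (−1.66, adjusted p = 0.0534), when the list had 2 lower genes. The 3 substrates that rose, each without overlap between the groups, were Thbs1, Col4a1 and Col4a2. Thbs1 stood at 26788 CPM in WWv and 21571 CPM in WT (0.31 ± 0.10, edgeR adjusted p = 0.043). Col4a1 stood at 2637 CPM in WWv and 1899 CPM in WT (0.47 ± 0.09, adjusted p = 0.00485). Col4a2 stood at 1966 CPM in WWv and 1411 CPM in WT (0.48 ± 0.08, adjusted p = 0.00216). Of the related ADAM proteases, which shed membrane proteins, 2 of 8 fell (25%, against 28.2% of all tested genes called) and 0 rose (edgeR; 2 higher at an unadjusted p under 0.05, 1 by DESeq2 and 0 by limma-voom). They were the TNF-alpha convertase gene Adam17 (56.9 ± 1.68 CPM in WWv and 68.9 ± 4.23 CPM in WT, −0.27 ± 0.05, adjusted p = 0.00324) and Adam33 (−0.71 ± 0.24, adjusted p = 0.0452), and Adam33 was not called without any one library other than WT 2 and WWv 1 (−0.74 to −0.59, edgeR adjusted p 0.0671 to 0.1). The procollagen C-proteinase gene Bmp1 did not pass (295 ± 29.8 CPM in WWv and 432 ± 135 CPM in WT, −0.55 ± 0.20, adjusted p = 0.063) and did without WT 2 (−0.72, adjusted p = 0.000354). No astacin gene was called by edgeR (0 of 2, 1 at an unadjusted p under 0.05, 1 by DESeq2 and 0 by limma-voom).

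Of the marker lists of other cell types and of smooth muscle, the smooth muscle and fibroblast sums did not overlap between the genotypes and the others did. Summed levels of 8 smooth muscle markers were 16764 to 20150 CPM in WWv and 9955 to 13019 CPM in WT, and those of 8 fibroblast markers, Dcn and Lum among them, were 262 to 422 CPM in WWv and 440 to 648 CPM in WT, with WT 2 the lowest of WT in the second. Endothelial markers summed to 95.8 to 222 CPM in WWv and to 94.1 to 343 CPM in WT, with WT 2 the highest. Chondrocyte markers summed to 110 to 342 CPM in WWv and to 165 to 523 CPM in WT, with Snorc and Matn1 at 0 in every library. Mesothelial markers summed to 12.5 to 19.7 CPM in WWv and to 10.6 to 26.0 CPM in WT. All 8 mast cell markers stayed below 1 CPM in every library. Of these Cpa3 averaged 0.00481 CPM in WWv and 0.231 CPM in WT without overlap, at 0 to 24 counts per library. Tpsab1, Hdc, Ms4a2 and Cma1 also had lower means in WWv, with overlap and at most 10 counts in any library. Tpsb2, at most 4 counts per library, and Mcpt4, with 1 count in all, had higher means in WWv, and Fcer1a was at 0 throughout. The part of these cell types in the changes of the proteases was not tested.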

How the data were processed

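The authors deposited 1 table of raw counts, whole numbers for 54446 Ensembl mouse gene IDs in 10 libraries. Per the submitters' processing notes, the authors used bcl2fastq 2.17, Trim Galore 0.4.3 and STAR 2.5.2a with mm10. How reads were counted per gene, and whether by strand, is not given in the sources used here, so members that share exon bases with another gene are uncertain. Symbols and positions come from GENCODE M21 (GRCm38, 1-based), where 54409 IDs matched without version and 37 did not.

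Groups follow the sample titles. The comparison of WWv against WT used the quasi-likelihood test of edgeR 4.0.16 under R 4.3.3, with TMM factors, filterByExpr at a minimum count of 10 and the group as the only term, over 15181 genes. Every adjusted p without another tool named is from this two-sided test with Benjamini-Hochberg adjustment over these genes. A standard error is the size of the log2 fold change over the root of its F statistic. The method was tested on simulated counts. Alternatives were limma 3.58.1, DESeq2 1.42.0, other scalings, filters and thresholds, a replicate block, a covariate for the cell cycle score and each library left out. The members, lists, tests and alternatives were chosen with earlier results of these data known.

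Library values are given for called members changed at least 1.5-fold, for the 6 members with the most counts per kb of exon, and for the member with the smallest p where a role group had no call. From each list of other genes up to 4 called genes with the largest change are named, or the 1 with the smallest p. Mmp8, Mmp10, the substrate genes that rose and, in the text on overlaps, partner genes were named after their values were seen. Pairs of libraries of 1 group differed by more than sampling noise. Promoters are from RefSeq (GRCm38.p6), where 35 of 50 members had a matching entry.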

Additional observations from a re-analysis of the deposited data

Results flagged for a closer look

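Within the 5 libraries of a genotype, 3 of 88 sets of values examined (38 members, Kit and 5 sums) held a library far from the other 4, where chance alone gives about 1 in 20. Adamts15 in WWv 5 was 0.458 CPM, against 0.0225 to 0.120 CPM in the other WWv libraries. Adamtsl2 in WWv 5 was 0.687 CPM, against 0.168 to 0.279 CPM in the others. Timp1 in WWv 3 was 1593 CPM, against 1446 to 1489 CPM. None of the 3 was in WT 2.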

How the results depend on the processing

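Of the 19 called members, Mmp3 and Mmp17 passed in all 22 alternatives and 17 lost their call in at least 1; 13 of the 19 uncalled members passed in at least 1. Higher members numbered 4 to 10 and lower members 9 to 18 when single libraries were left out. Higher and lower members numbered 3 and 4 at an adjusted p under 0.01, 4 and 2 with a covariate for the cell cycle score, 5 and 15 with library size only, and 5 and 9 with a filter of 1 CPM in 5 libraries. With quality weights in limma-voom 12 were higher and 18 lower, when 48.8% of all tested genes were called. Kit was not called with the cell cycle score (−1.16, adjusted p = 0.0535) or at 0.01 (−1.04). The summed level of all members, 472 CPM higher in WWv, was lower in WWv with library size only (−110.29 CPM), a move within 1 SD (1664 CPM). With the cell cycle score the sign turned for Mmp16 (−0.31), Adamts1 (0.0291), Adamts20 (0.44), Adamts4 (0.0278), Adamts2 (0.40), Adamts3 (0.0504), Adamts10 (0.58), Adamts6 (0.32), Adamtsl1 (0.13), Adamtsl2 (0.31), Adamtsl3 (0.0524), A2m (0.0331), Bmp1 (0.19) and Dcn (0.21), of which Adamts10 passed; Timp3 moved to 1.24 (adjusted p = 0.0608), Lum to −1.21, Adamts15 to −2.53, Adamts9 to −0.31, Adamts5 to −0.02, Mmp24 to 0.52 and Adamts14 to 0.18, none of them past the threshold; the cause was not tested. Timp3 turned with upper quartile (−0.00437), library size only (−0.0615), the 1 CPM filter (−0.00684) and quality weights (−0.0720), and ran from −0.211 to 0.172 over left-out libraries. Adamtsl4 turned with quality weights (−0.00731). Adamtsl5 turned with RLE (0.00151), no filter (0.00231), DESeq2 (0.0101), limma-voom (0.00105) and the replicate block (0.000714). Over left-out libraries Mmp15 ran from −0.222 to 0.0714, Mmp16 from −0.00290 to 0.208 and Adamtsl5 from −0.0287 to 0.0301.

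Replicate numbers did not pair the libraries (correlations of same-numbered deviations −0.0920, −0.0129, 0.0368, −0.0712 and 0.308). With the replicate number as a block 7 members were higher and 9 lower, and Mmp14 (0.31), Adamts3 (−0.84) and Adamtsl3 (−0.86) were not called. Low counts limit Mmp27, Mmp24, Adamts20 and the 12 untested members.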

Other observations

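Of the 35 members with a RefSeq promoter, 6 (17.1%) held TGANTCA, against 7.81% of all promoters, and all 6 were Mmp genes of the chromosome 9 cluster (Mmp13, Mmp1b, Mmp3, Mmp10, Mmp20 and Mmp7), of 9 with an entry there. TATAAA was in 9 (25.7%), against 8.32% of all promoters. These cluster genes ranged from 0 counts in all libraries (Mmp7) to Mmp3, and those with the motif included a called fall and no called rise.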
